A study of Homo sapiens with 4 samples.

Results

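PRDX1 and 9 genes that lie near it on the short arm of human chromosome 1 were followed through single cells of 4 melanoma lines. The 10 genes were selected on earlier readings of these data, in which PRDX1 and AKR1A1 stood highest in 1 set of cells. The other 8 (HECTD3, UROD, TOE1, TESK2, MMACHC, NASP, GPBP1L1 and TMEM69) were taken for their position. All 10 were among the 19238 genes of the count table. The question was whether PRDX1 and AKR1A1 stood high together with their neighbours, as genes in a gained stretch of chromosome might, or by themselves.

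The lines were WM239A, a poorly metastatic human melanoma line, and 3 subclones of it, of which 113/6-4L is labelled as spreading readily to the lung and 131/4-5B1 and 131/4-5B2 as spreading readily to the brain. The labels name no treatment, and each line was 1 library of droplet-based 3' RNA sequencing, which counts molecules by unique identifiers (UMIs). Cell names carried a suffix from 1 to 4, and no source used here ties a suffix to a line, so the cells are described as 4 unlabelled barcode sets. Differences between sets are therefore not differences between named lines, and with 1 library a set no test or p-value is given.

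PRDX1 is a peroxiredoxin, an abundant enzyme of the cytosol that breaks down hydrogen peroxide and is itself reduced by thioredoxin. AKR1A1 is an aldehyde reductase that uses NADPH to turn reactive aldehydes into alcohols. A copy number gain carries every gene of a stretch of chromosome with it and often shifts their transcripts together, whereas control of single promoters can move 1 gene and leave the next where it was. DNA was not measured in these samples.

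In the RefSeq order the genes run HECTD3, UROD, TOE1, TESK2, MMACHC, PRDX1, AKR1A1, NASP, GPBP1L1, TMEM69. No other gene of the count table lay between PRDX1 and AKR1A1 or between AKR1A1 and NASP. By the GENCODE annotation PRDX1 is read from the minus strand and AKR1A1 from the plus strand, so they are read away from each other. Their starts are thus neighbours in gene order, and the distance between them is not given here. The spans of PRDX1 and MMACHC overlap at their 3' ends, as do those of TOE1 and TESK2, and no source used here says whether counting used strand. The counts of MMACHC, TOE1 and TESK2 are uncertain to that extent.

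RefSeq promoter sequences were matched for 9 of the 10 genes. The gene without one was PRDX1, so its promoter was not searched for the motifs below. Those of AKR1A1 and of the next gene, NASP, are shown because these neighbours on the same strand differed in the pattern described below. Each is the 250 bases before the start, on the plus strand of GRCh38.p14, at chr1:45550576-45550825 for AKR1A1 and chr1:45583791-45584040 for NASP. Capitals mark an E-box, CACGTG, a motif bound by MITF, MYC and related factors.
AKR1A1: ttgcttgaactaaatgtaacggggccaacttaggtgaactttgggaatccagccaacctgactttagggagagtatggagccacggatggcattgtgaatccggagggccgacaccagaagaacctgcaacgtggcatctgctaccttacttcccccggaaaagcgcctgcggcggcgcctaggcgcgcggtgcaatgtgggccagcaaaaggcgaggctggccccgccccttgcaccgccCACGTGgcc
NASP: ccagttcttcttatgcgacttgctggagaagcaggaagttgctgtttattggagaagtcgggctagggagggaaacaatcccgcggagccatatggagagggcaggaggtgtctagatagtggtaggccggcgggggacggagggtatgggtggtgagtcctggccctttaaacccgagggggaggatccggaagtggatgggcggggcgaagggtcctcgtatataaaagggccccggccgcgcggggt

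The E-box of AKR1A1 began 9 bases before the start. Searched on both strands over the same 250 bases, CACGTG was present in 6.34% of 35116 promoters, and among the 9 genes only in those of AKR1A1 and TESK2. The core of the antioxidant response element, TGACNNNGC, was present in 10.9% of promoters and, among the 9, only in that of GPBP1L1. These are matches of letters, and binding was not measured.

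The sets held 2121, 1779, 2140 and 2133 cells and between 71182648 and 71915542 UMIs. Set 2 had the fewest and deepest cells, with a median of 41131 UMIs against 33152.5 to 33556. In all, 39 barcodes occurred in 2 sets, and without their cells every ratio of set 2 given for the 10 genes below stayed within its counting interval. The 8 melanoma markers together reached 6946 to 9873 UMIs per 1000000 (CPM), whereas fibroblast markers summed to at most 13.8 CPM, endothelial ones to at most 2.98 CPM and immune ones to at most 1.11 CPM. Values below are given in the order of sets 1 to 4, with exact 95% intervals that cover counting error only. MITF, named above for the E-box, stood at 257.3, 196.4, 266.5 and 260.9 CPM, lowest in set 2. Levels of MYC and related factors are not given here, and whether any of these factors acts on AKR1A1 in these cells was not tested.

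PRDX1 stood at 1295, 1882, 922 and 983 CPM. Set 2 was highest, set 1 followed, and sets 3 and 4 were lowest and 1.07-fold apart (1.06 to 1.08). The ratio of set 2 was 1.45 to set 1 (1.44 to 1.47), 2.04 to set 3 (2.02 to 2.06) and 1.92 to set 4 (1.90 to 1.93).

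AKR1A1 stood at 245, 563, 303 and 316 CPM. Set 2 was again highest, but here set 1 was lowest, 1.29-fold below set 4 (1.27 to 1.32). The ratio of set 2 was 2.30 to set 1 (2.26 to 2.34), 1.86 to set 3 (1.83 to 1.89) and 1.78 to set 4 (1.75 to 1.81). For every 100 UMIs of PRDX1 there were 18.9, 29.9, 32.9 and 32.1 UMIs of AKR1A1, so AKR1A1 was scarcest relative to PRDX1 in set 1.

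**Figure D1:**
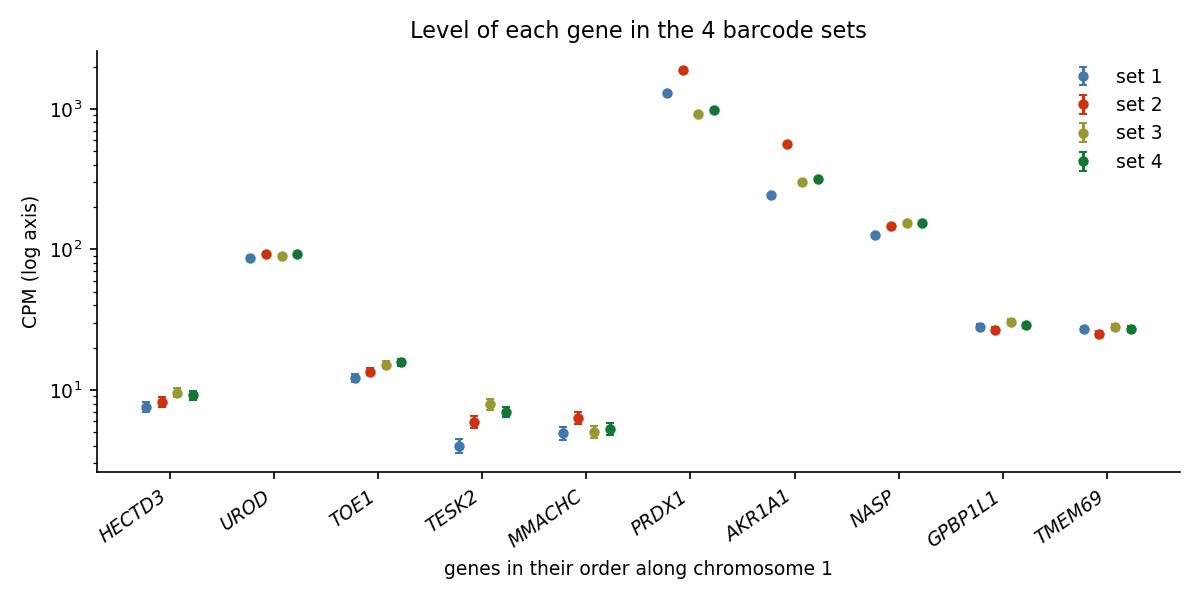
CPM (log axis) of the 10 genes in chromosome order, 1 point per barcode set with its exact 95% Poisson interval. PRDX1 and AKR1A1 are highest in set 2 (1882 and 563 CPM), while the points of UROD and NASP lie close together.

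NASP, a chaperone that holds free histones and is made in S phase, is the next gene after AKR1A1. It stood at 127, 146, 154 and 153 CPM, with set 2 between set 1 and the others. Its ratio was 1.15 to set 1 (1.12 to 1.18), 0.944 to set 3 (0.919 to 0.970) and 0.953 to set 4 (0.927 to 0.979). UROD, the fifth enzyme of heme synthesis, was nearly level at 87.5, 92.7, 89.6 and 92.3 CPM. The ratios of set 2 for UROD were 1.06, 1.03 and 1.003.

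GPBP1L1, a relative of a factor that binds GC-rich promoters, stood at 28.2, 26.8, 30.7 and 28.8 CPM. TMEM69, a membrane protein, stood at 26.9, 24.9, 28.0 and 27.2 CPM. Both were lowest in set 2, with ratios between 0.875 and 0.950 for GPBP1L1 and between 0.890 and 0.924 for TMEM69. TOE1, an exonuclease that trims small nuclear RNAs, stood at 12.1, 13.5, 15.1 and 15.8 CPM, again with set 2 between set 1 and the other sets. In cells called G1 this order turned, and set 2 was 1.06 and 1.09 times sets 3 and 4.

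The other 3 genes stayed under 10 CPM in every set. MMACHC, which processes vitamin B12, stood at 4.90, 6.33, 5.03 and 5.30 CPM. It was the neighbour with its highest value in set 2 by the widest margin, at 1.29 (1.12 to 1.49), 1.26 (1.09 to 1.45) and 1.20 (1.04 to 1.37) times sets 1, 3 and 4. MMACHC overlaps PRDX1, and the part of PRDX1 reads in its 351 to 455 UMIs was not tested. TESK2, a kinase of the actin regulator cofilin, stood at 3.99, 5.92, 7.88 and 6.97 CPM, so set 2 was 1.48 times set 1 (1.27 to 1.73) but 0.752 times set 3 (0.661 to 0.854). HECTD3, a ubiquitin ligase, stood at 7.57, 8.18, 9.56 and 9.13 CPM.

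Summed, the 8 neighbours came to 298, 324, 340 and 339 CPM. Set 2 was 1.09 times set 1 (1.07 to 1.11), 0.953 times set 3 (0.936 to 0.970) and 0.957 times set 4 (0.940 to 0.975). Thus the neighbours together were lowest in set 1 and slightly lower in set 2 than in sets 3 and 4.

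Over all 7421 genes with at least 10 CPM in some set, the median log2 ratio of set 2 was -0.07, 0.01 and -0.02 to sets 1, 3 and 4. A margin of 25% was used to describe size. Set 2 exceeded set 1 by that much in 10.9% of these genes, set 3 in 10.7%, set 4 in 7.67% and every other set in 2.09%, and it was as far below every other set in 2.33%. Of the 10 genes, 7 reached 10 CPM. Of these 7, PRDX1 and AKR1A1 were at least 25% above every other set, which is the pattern they were chosen for. None of the 5 neighbours that reached 10 CPM was 25% above any other set, and none was as far below every other set. Among all 10, counting the weak genes too, 4 exceeded set 1 by the margin (TESK2 and MMACHC besides the pair). Set 3 was exceeded by 3 (MMACHC besides the pair) and set 4 by 2. The shares above leave out genes under 10 CPM, and like shares with no minimum are not given for single sets. With no minimum, 8.17% of genes were that far above every other set. At 1.5-fold, AKR1A1 was above every other set and PRDX1 was not, because of its ratio of 1.45 to set 1. Ranked by the ratio of set 2 to the mean of the others, 0.552% of genes lay above AKR1A1 (1.96) and 0.728% above PRDX1 (1.76). For NASP (1.01) the share was 39.2% and for UROD (1.03) 32.2%. The weak genes were not among those ranked. Of the ranked genes, 5.61% lay above MMACHC (1.247), 59.5% above TESK2 (0.943) and 62.7% above HECTD3 (0.934).

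The view was widened to the 15 nearest genes with at least 10 CPM on each side of PRDX1, placed by their order in RefSeq. Without PRDX1 and AKR1A1 these were 29 genes, and the median ratio of set 2 to the mean of the others was 0.989. For 25 of the 29 it lay within the margin of 25% in both directions. The same share of all measured genes was not counted. The rest, MED8 (1.32), PLK3 (1.32), LURAP1 (1.61) and PIK3R3 (1.895), were all above the margin, and the lowest ratio was 0.907 (HYI). Among genes with at least 10 CPM, TOE1 (0.943) and NASP (1.01) flank the pair directly. They and those just beyond, UROD (1.03) and GPBP1L1 (0.918), were all inside the margin. Nearer to PRDX1 than TOE1 lie genes under 10 CPM, among them TESK2 (0.943) and MMACHC (1.247), which is next to PRDX1.

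Of these 29 genes 3 (10.3%) were at least 25% above every other set, against 2.09% of all measured genes. PIK3R3, a regulatory subunit of PI3 kinase, is the fifth measured gene past PRDX1 and stood at 17.2, 38.8, 24.7 and 19.6 CPM. LURAP1, an adaptor protein, is the seventh and stood at 9.54, 13.5, 6.97 and 8.60 CPM. It reached 10 CPM only in set 2, so it was among the 29 only because it was high there. PLK3, a stress-response kinase, lies on the other side and stood at 11.1, 13.97, 10.6 and 9.92 CPM, only just past the margin against set 1. Between AKR1A1 and PIK3R3 lay NASP, GPBP1L1 and TMEM69, and between PIK3R3 and LURAP1 lay POMGNT1, at 48.6, 45.9, 48.1 and 47.2 CPM. PLK3 was separated from PRDX1 by EIF2B3, UROD and TOE1. Outside the adjacent pair, the genes high in set 2 were thus parted by genes within the margin.

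**Figure D2:**
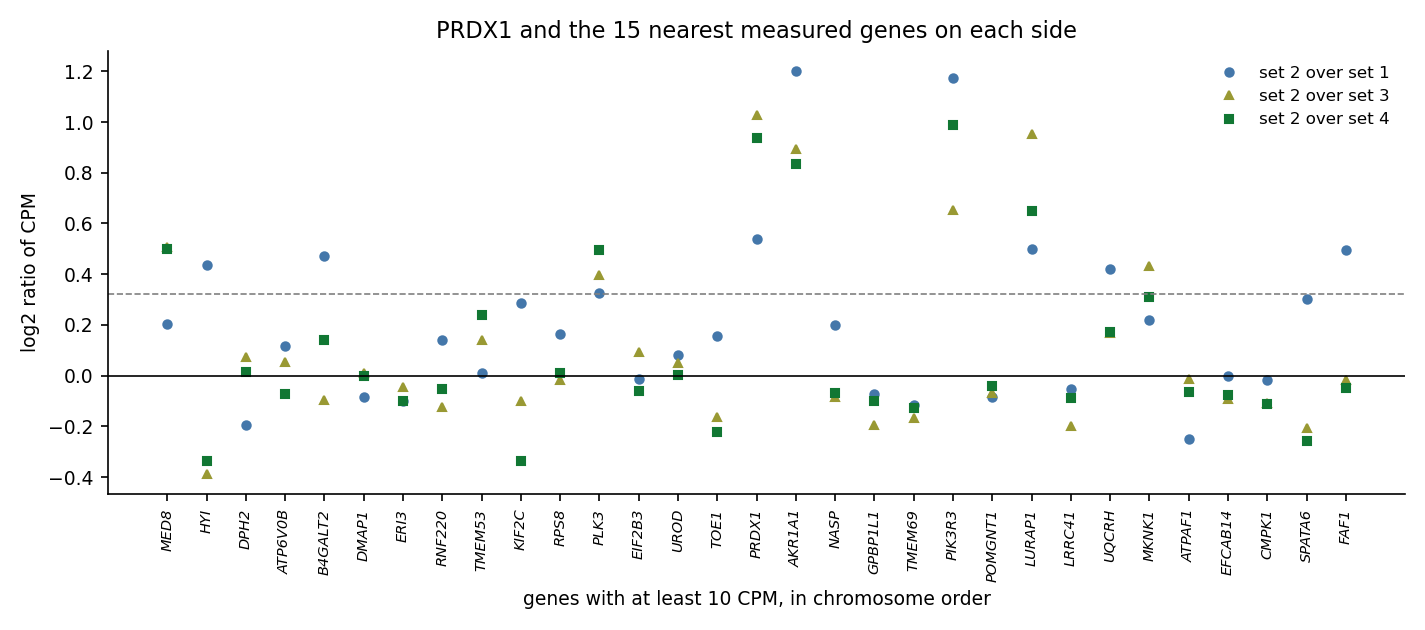
Log2 ratio of CPM of set 2 to each other set for PRDX1 and the 15 nearest genes with at least 10 CPM on each side, in chromosome order; the dashed line marks the margin of 25%. PRDX1, AKR1A1, PIK3R3, LURAP1 and PLK3 lie above it for all 3 ratios, while NASP, GPBP1L1 and TMEM69 after AKR1A1 lie near or under 0.

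As a running median of 11 consecutive genes, the log2 ratio of set 2 to the mean of the others was 0.05 at PRDX1. Over the 7005 such medians of the genome, 19.2% were higher, and they ran from -0.37 to 0.27. No running median anywhere was 25% above, the highest being a ratio of 1.21 on chromosome 7. The 757 measured genes of chromosome 1 had a median of 0.02, against -0.05 over all placed genes.

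Whether all cells of set 2 or only some were high was read from cells thinned to 10000 UMIs each, which left out 6, 1, 1 and 1 shallower cells. The median cell had 11, 17, 8 and 8 UMIs of PRDX1. At the 5th percentile of cells it was 3, 5, 2 and 2 and at the 95th it was 30, 40, 22 and 25. Set 2 was highest at each of these points, low cells and high cells alike, yet the sets overlapped. At the deposited depth and per 10000 UMIs, 77.4%, 90.05% and 89.7% of the cells of set 2 lay above the median of sets 1, 3 and 4.

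AKR1A1 behaved alike, with 2, 5, 2 and 2 UMIs in the median thinned cell and 7, 13, 8 and 8 at the 95th percentile. No UMI of AKR1A1 was seen in 22.6%, 2.98%, 14.4% and 11.9% of thinned cells, and at the deposited depth at least 1 was seen in 95.2%, 99.8%, 97.9% and 98.1% of cells. At the deposited depth, 92.5%, 85.4% and 83.4% of set 2 lay above the medians of sets 1, 3 and 4. For NASP these shares were 63.2%, 45.9% and 44.2%, and for UROD 55.0%, 51.3% and 50.7%. No cell type that lacks these genes was present from which to measure free RNA.

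**Figure D3:**
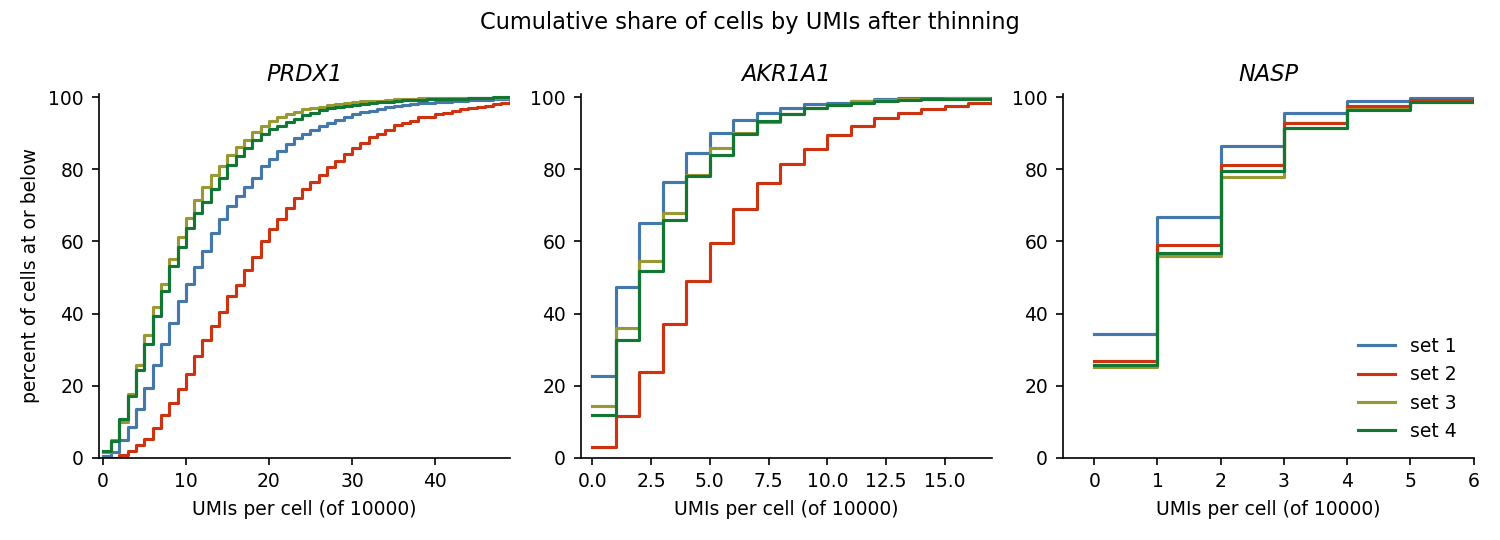
Cumulative percent of cells against UMIs per cell after thinning to 10000 UMIs, 1 line per set, for PRDX1, AKR1A1 and NASP. The line of set 2 is shifted to the right along its whole length for PRDX1 (median 17 against 8 to 11) and AKR1A1 (median 5 against 2). For NASP it is shifted to the right of set 1 (no UMI in 26.8% against 34.3% of cells) but not of sets 3 and 4.

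The ratio between sets was wider among low cells than among high cells. Against set 3, the PRDX1 level of set 2 was 2.56-fold higher at the 10th percentile, 2.16-fold at the median and 1.85-fold at the 90th, at the deposited depth. For AKR1A1 against set 3 the same ratios were 2.60, 2.04 and 1.76, and against set 1 they were 4.41, 2.76 and 1.99. Depth differed between sets, and at the 10th percentile AKR1A1 rests on few UMIs a cell.

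PRDX1 and AKR1A1 also varied more from cell to cell than UROD and NASP, the other members with at least 50 CPM in every set. Variation was measured as the excess of the squared coefficient of variation over that of Poisson counting, in thinned cells. For PRDX1 the excess was 0.414, 0.299, 0.443 and 0.468 and for AKR1A1 0.708, 0.360, 0.537 and 0.498, lowest for both in set 2. NASP had 0.145, 0.136, 0.144 and 0.183, and UROD at most 0.0968. For the weaker members the measure rests on few UMIs a cell and spread widely, with MMACHC at 2.70, 0.891, 0.469 and 0.370, above both genes in sets 1 and 2, and TESK2 from -0.540 to 0.431. The median over 2259 genes with at least 50 CPM in every set lay between 0.0625 and 0.0798. PRDX1 exceeded 96.3% to 98.3% of these genes and AKR1A1 97.2% to 98.6%, depending on the set.

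This variation was shared by the 2 genes. Across the cells of 1 set, Pearson's r between PRDX1 and AKR1A1, on the log of 1 plus UMIs per 10000, was 0.52, 0.62, 0.58 and 0.60 at the deposited depth. In thinned cells, used from here on, it was 0.41, 0.48, 0.40 and 0.47 over 2115, 1778, 2139 and 2132 cells. Cells share their library and, within a set, the same total, and r is given as a description. Within phases of the cell cycle it lay between 0.38 and 0.51 in every set. AKR1A1 was the gene most correlated with PRDX1 among 2258, and PRDX1 the gene most correlated with AKR1A1, each by the mean over sets (0.44).

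With the remaining neighbours r was lower. The r of PRDX1 with UROD was 0.07 to 0.08 and with NASP 0.04 to 0.12, and with the other 6 it lay between -0.04 and 0.05. For AKR1A1 the r with NASP was 0.02 to 0.09. Counts of the weaker genes are sparse, which lowers any r.

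After AKR1A1, the genes most correlated with PRDX1 lay on other chromosomes. TXN, the thioredoxin that reduces PRDX1, had r of 0.25, 0.32, 0.22 and 0.26. GSTO1, a glutathione transferase, had 0.35, 0.22, 0.20 and 0.23, POMP, a proteasome assembly factor, had a mean of 0.23, and CD63, a tetraspanin of melanosomes and late endosomes, had 0.23.

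**Figure D4:**
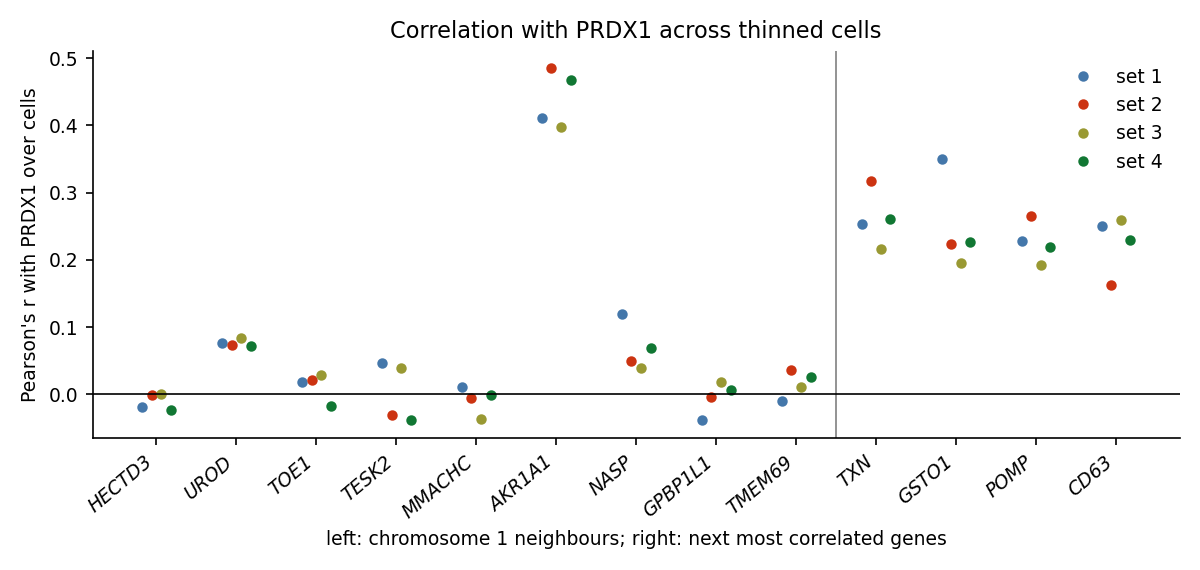
Pearson's r with PRDX1 over thinned cells, 1 point per set, for the 9 neighbours (left of the line) and the next 4 genes by mean r (right). AKR1A1 lies at 0.40 to 0.48, its neighbour NASP at 0.04 to 0.12 and TXN at 0.22 to 0.32.

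To place this value, r was computed for every pair of consecutive genes with at least 50 CPM in every set, 2202 pairs in all. Their median of the mean r over sets was 0.02. The pair of PRDX1 and AKR1A1 had the highest mean, 0.44, followed by NEAT1 and MALAT1, nuclear noncoding RNAs, at 0.40. Well-counted genes can reach a higher r than sparse ones, so the order reflects level as well.

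Cells were then ordered by PRDX1 within each set and parted into quartiles, and the mean of AKR1A1 was read in thinned cells. From the lowest to the highest quartile of set 2 it was 3.37, 4.50, 5.82 and 8.15 UMIs, a 2.42-fold difference between the ends. In sets 1, 3 and 4 the ends differed 3.23-, 2.62- and 3.05-fold. The summed 8 neighbours differed 1.251-, 1.11-, 1.17- and 1.18-fold in sets 1 to 4, with UROD at 1.30, 1.26, 1.28 and 1.30 and NASP at 1.45, 1.09, 1.14 and 1.23. The other 6 ran from 0.726 (TESK2, set 2) to 1.42 (TESK2, set 1), all less than the difference in AKR1A1.

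**Figure D5:**
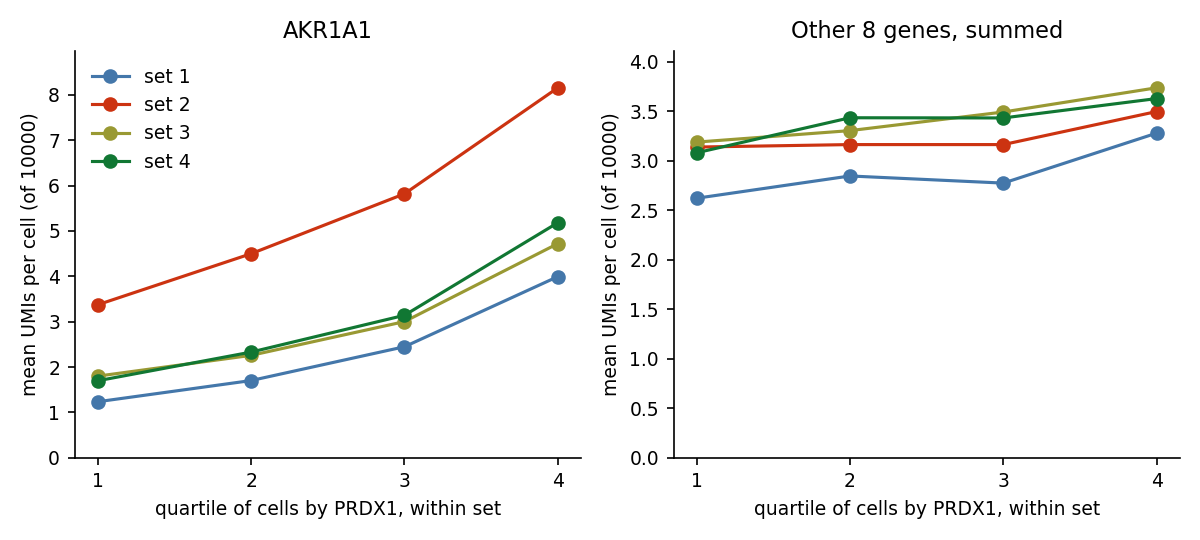
Mean UMIs per thinned cell of AKR1A1 (left) and of the other 8 genes summed (right) against the quartile of cells by PRDX1 within each set, 1 line per set. AKR1A1 climbs 2.42- to 3.23-fold from the first to the last quartile, the sum of the others 1.11- to 1.251-fold.

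AKR1A1 was also read in cells with a like count of PRDX1. In cells with 10 to 14 UMIs of PRDX1 after thinning, AKR1A1 averaged 2.08, 4.16, 3.36 and 3.31 UMIs, with a spread over cells (SD) of 2.06, 2.92, 2.60 and 2.27 in 483, 378, 420 and 409 cells. With 20 to 29 UMIs of PRDX1 it averaged 3.67, 6.51, 5.59 and 6.04. Set 2 was highest and set 1 lowest in both ranges. The median thinned cell had 11, 17, 8 and 8 UMIs of PRDX1. A count of 10 to 14 was thus low for set 2 and high for sets 3 and 4. Since single counts are noisy, these ranges do not equalise PRDX1 between sets, and no difference at equal PRDX1 can be read from them. Over all cells there were 18.9, 29.9, 32.9 and 32.1 UMIs of AKR1A1 per 100 of PRDX1, fewer in set 2 than in sets 3 and 4.

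The sets differed in the share of cells assigned to each phase, with 38.7%, 30.8%, 32.9% and 22.5% in G1. PRDX1 in G1 cells alone stood at 1172, 1784, 913 and 963 CPM, and AKR1A1 at 204, 529, 254 and 286 CPM, so set 2 was highest for both among cells called G1 by their phase scores. In cells assigned to S phase PRDX1 stood at 1395, 1998, 916 and 1044 CPM and AKR1A1 at 257, 589, 307 and 317 CPM. In G2 and M they stood at 1314, 1821, 943 and 910 CPM and at 281, 559, 351 and 332 CPM. NASP, left out of the phase genes, ran from 89.3 to 114 CPM in G1 and from 160 to 184 CPM in S phase over the 4 sets. TOE1 was higher in S phase too, at 15.7 to 19.3 CPM against 7.55 to 10.5 CPM in G1.

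Of 6 peroxiredoxins PRDX1, chosen for this pattern, was the only one at least 25% above every other set. With 2.09% of all measured genes that far above, few others were to be looked for in a list of 6. PRDX6, which acts with glutathione, came nearest at 447, 490, 390 and 418 CPM, while PRDX2, the close cytosolic relative, stood at 232, 271, 281 and 278 CPM. The median log2 ratio of set 2 to the mean of the others over the 6 was 0.11, against -0.04 over all measured genes. In the thioredoxin system, 0 of 8 measured genes were above every other set and 0 below. Over all measured genes 2.09% were above and 2.33% below, so a count of 0 says little about so short a list. TXN stood at 1666, 1599, 1292 and 1325 CPM and TXNRD1, thioredoxin reductase, at 115, 76.7, 52.4 and 55.9 CPM, both highest in set 1. Of 3 measured aldo-keto reductases AKR1A1, also chosen for this pattern, was the only one above every other set, and the same limit holds. AKR1B1, the aldose reductase, stood at 247, 222, 185 and 202 CPM and AKR7A2 at 191, 200, 201 and 200 CPM.

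Of 18 measured targets of NRF2, the factor that switches on antioxidant genes, 14 were highest in set 1 and 3 in set 2. Of all measured genes 44.9% were highest in set 1 and 19.2% in set 2. In set 2, 1 of the 18 was at least 25% above every other set and 0 were below, against 2.09% and 2.33% of all measured genes. The list's median log2 ratio was -0.12. That 1 gene was FTL, a ferritin chain, at 6825, 8991, 6782 and 6642 CPM. NQO1, a quinone reductase, stood at 1783, 1070, 878 and 907 CPM. SLC7A11, which brings in cystine, had 18.2, 3.25, 7.46 and 2.35 CPM. Both were highest in set 1, unlike PRDX1.

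None of 7 measured heme synthesis genes, 8 measured cobalamin genes or 14 measured histone chaperones was 25% above or below every other set. Over all measured genes 2.09% were above and 2.33% below, so a count of 0 says little about such short lists. The median log2 ratios of the lists were 0.05, -0.12 and -0.07. SSRP1, a subunit of the FACT histone chaperone, stood at 148, 143, 150.4 and 155 CPM.

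The genes whose 3 ratios lay nearest to those of PRDX1 were CLEC2B, ID2, LOXL4, BIRC7 and PLA2G16, among 2800 with at least 50 CPM in some set. The measure was the Euclidean distance between the log2 ratios of set 2 to the other 3 sets, 0.12 for CLEC2B and 0.31 for PLA2G16. CLEC2B, a lectin-like receptor ligand, stood at 35.2, 51.6, 27.3 and 27.9 CPM, and BIRC7, a melanoma inhibitor of apoptosis protein, at 123, 181, 77.9 and 79.4 CPM. None of these 5 lay on chromosome 1. Nearest to AKR1A1 was TMSB4X, an actin-binding thymosin, at 468, 1302, 878 and 872 CPM, but at a distance of 0.50. HMGA2, a chromatin protein, followed at 0.51. Genes under 50 CPM were not ranked. Of the nearby genes under that level, PIK3R3 lay at 0.29 from AKR1A1, nearer than TMSB4X, and LURAP1 at 0.30 from PRDX1, nearer than PLA2G16.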

How the data were processed

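Droplet 3' RNA sequencing had been done on 4 melanoma lines, 1 library each. The authors deposited UMI counts per gene and cell. The submitters' processing notes name Cell Ranger 3.0.0, Seurat 3.0 and the genome builds mm10 and hg19, without saying what each served. The table of natural log values was not used.

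The members and gene lists were chosen with earlier results of these data known, and so were the folds described. Counts were added up per suffix and scaled to 1000000 UMIs (CPM). Intervals are exact Poisson (CPM) or conditional binomial (ratios). Phases came from scanpy 1.11.5 on cells thinned to 10000 UMIs, with NASP left out of the S phase genes. Doublets were not called and free RNA was not removed. Ratios were checked on simulated data. Gene order came from RefSeq (GRCh38.p14), which placed 7235 of 7421 measured genes by 14127 symbols and 1221 synonyms matched over the table, since the files give no positions. TMM factors came from edgeR 4.0.16. Correlations were ranked in thinned cells, although the deposited depth had been planned. Excess variation, consecutive pairs, PRDX1 quartiles and ranges of PRDX1 counts were added after seeing the data.

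Names were drawn from the 10 members, the 15 nearest measured genes on each side and up to 4 genes of each list farthest from the other sets. They also came from the 5 genes nearest by ratio to PRDX1 and to AKR1A1, and the 5 most correlated with PRDX1. Not all of these genes are named in the text. Other list genes (PRDX2, PRDX6, AKR1B1, AKR7A2, TXN, TXNRD1, NQO1, SLC7A11 and SSRP1) and the pair NEAT1 and MALAT1 were chosen after their values were seen. So were the distances of PIK3R3, LURAP1 and PLK3.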

Additional observations from a re-analysis of the deposited data

How the results depend on the processing

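No paired analysis was possible because no group has more than 1 library and no cell is tied to a line. Under 7 alternatives for the ratios, of which leaving out barcodes found in 2 sets was chosen after seeing the data, PRDX1 and AKR1A1 were higher in set 2 than in every other set each time, and values moved by at most 12.7%. With TMM scaling, PRDX1 was 1.53 and 2.02 times sets 1 and 3 and AKR1A1 2.41 times set 1. With totals without mitochondrial and ribosomal protein genes, PRDX1 was 1.49 and 2.004 times sets 1 and 3 and AKR1A1 2.35 and 1.82 times. In G1 cells only, PRDX1 was 1.52, 1.96 and 1.85 times sets 1, 3 and 4 and AKR1A1 2.59, 2.08 and 1.85 times. PRDX1 was 1.48 times set 1 by the mean over cells and 1.47 times after thinning. The cause was not tested. The totals without mitochondrial and ribosomal protein genes raised the median log2 level of all measured genes by 0.49, 0.52, 0.55 and 0.53 in sets 1 to 4. Of 168 ratios of neighbours, 151 stayed within the counting interval and 17 moved beyond it. The ratios of MMACHC, TESK2 and TOE1 to set 1 ran from 1.28 to 1.65, 1.19 to 1.56 and 1.11 to 1.39. MMACHC reached 1.42 times set 4 after thinning. TOE1 turned in G1 cells, from 0.894 to 1.06 times set 3 and from 0.857 to 1.09 times set 4. At 1.5-fold, 1 of the 10 genes and 34 of all genes were above every other set instead of 2 and 155. With a minimum of 50 CPM, where fewer genes are measured, 54 genes were, and with no minimum 1572 (8.17%). The running median of the log2 ratio at PRDX1, 0.045, was 0.010 over 21 genes and 0.045 with a minimum of 50 CPM. Without PRDX1 and AKR1A1 it was 0.010. In these 3 alternatives it moved by less than the spread of single genes in its window, a wide limit that a median could hardly pass.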
